A study of Mus musculus with 22 samples.

Results

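The immediate early genes described here are 10 genes, *Fos*, *Fosb*, *Fosl2*, *Jun*, *Junb*, *Jund*, *Egr1*, *Atf3*, *Ier2* and *Dusp1*, out of 30332 genes with counts at either age. They were chosen by symbol, as genes that cells switch on within minutes of a stimulus, and each symbol matched 1 Ensembl gene in the table of each age. All 10 had an ID in both tables, and 9 passed the filter on low counts at P9 (all but *Atf3*) and 10 at E14.5. RNA was sequenced from 100 tdTomato+ endocrine cells of the mouse pancreas per library, sorted by fluorescence. The *Isl1CKO* cells came from mice with 2 floxed *Isl1* alleles, the *Neurod1-Cre* driver and the Ai14 tdTomato reporter, with 6 libraries after birth at P9 (postnatal day 9) and 5 in the embryo at E14.5 (days of gestation). Control cells formed 5 libraries at P9 and 6 at E14.5. They carried a single floxed *Isl1* allele with the same driver and reporter, although their sample labels call them wild type. In all 4 groups the cells are thus those in which *Neurod1-Cre* had been active, and this driver acts in endocrine precursors of the embryo, not only in the postnatal islet. The libraries are called biological replicates, but no source used here ties one to an animal, so the p-values measure the spread between libraries.

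Immediate early genes are transcribed without new protein synthesis, because the factors that start them are already bound or present and only need to be phosphorylated. FOS and JUN proteins pair through leucine zippers into the AP-1 transcription factor, EGR1 is a zinc finger factor, ATF3 is a stress-responsive leucine zipper factor, and DUSP1 is a phosphatase that switches off the MAP kinases that induced it. In β cells, glucose and incretins raise calcium and cyclic AMP and thereby induce several of these genes, and in dissociated tissues the enzymes and the warm incubation induce them as well. Here the E14.5 tissue was treated with warm trypsin for 5 min, whereas the P9 pancreas was first perfused and incubated with warm collagenase for 10 to 12 min and then treated with trypsin. Both genotypes of an age went through the same steps, and the time from dissection to lysis of single libraries was not analysed here. By the authors' account some hours passed between euthanasia and the collection of cells, so the enzyme steps are only a part of it.

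The promoters of *Fos*, *Fosb* and *Dusp1*, 3 of the 4 members called lower at P9, are shown because cyclic AMP response elements are a known entry point of calcium and cyclic AMP signals to *Fos* and *Dusp1*. Promoter windows of 300 bases, from 250 bases before to 50 bases after the start of the gene, were found for 8 of the 10 members in RefSeq (GRCm38.p6). The core of the element, TGACG on either strand (TGACG or CGTCA), occurred in 5 of these 8 windows, those of *Fos*, *Fosb*, *Junb*, *Atf3* and *Dusp1*, and in 20.8% of 32851 promoters. The windows of *Fosl2*, *Jun* and *Jund* lacked it. The core did not sort the members by their P9 calls, since *Jund* was called lower without it and *Junb*, which holds it, was not called. Below, capitals mark this core, and *Fosl2* is shown only as an example of a window without it.
Fos, chr12:85473640-85473939, + strand: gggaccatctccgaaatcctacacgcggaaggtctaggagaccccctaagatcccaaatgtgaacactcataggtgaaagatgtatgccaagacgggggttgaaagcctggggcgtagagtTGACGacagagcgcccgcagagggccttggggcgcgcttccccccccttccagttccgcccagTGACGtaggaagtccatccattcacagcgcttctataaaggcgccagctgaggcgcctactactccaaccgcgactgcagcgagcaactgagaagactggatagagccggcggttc
Fosb, chr7:19309996-19310295, - strand: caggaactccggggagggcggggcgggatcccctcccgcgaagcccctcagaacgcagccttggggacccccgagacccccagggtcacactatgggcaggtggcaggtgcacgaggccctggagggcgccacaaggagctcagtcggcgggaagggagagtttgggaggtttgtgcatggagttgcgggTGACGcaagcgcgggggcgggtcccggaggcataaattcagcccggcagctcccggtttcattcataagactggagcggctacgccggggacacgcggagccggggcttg
Dusp1, chr17:26508423-26508722, - strand: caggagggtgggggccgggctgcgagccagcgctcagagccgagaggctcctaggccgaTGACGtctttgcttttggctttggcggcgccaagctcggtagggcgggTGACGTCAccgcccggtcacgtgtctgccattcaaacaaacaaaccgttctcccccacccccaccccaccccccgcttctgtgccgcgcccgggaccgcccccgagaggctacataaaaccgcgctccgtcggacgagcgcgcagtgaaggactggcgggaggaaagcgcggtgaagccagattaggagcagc
Fosl2, chr5:32136222-32136521, + strand: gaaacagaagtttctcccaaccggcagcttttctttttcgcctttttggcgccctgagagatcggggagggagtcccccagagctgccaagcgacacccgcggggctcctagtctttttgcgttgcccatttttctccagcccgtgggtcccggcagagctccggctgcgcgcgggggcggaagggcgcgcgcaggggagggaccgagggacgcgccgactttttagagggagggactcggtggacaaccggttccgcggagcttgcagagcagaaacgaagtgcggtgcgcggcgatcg
In *Fos* the cores begin 129 and 66 bases before the start. *Dusp1* holds the full palindrome TGACGTCA, 143 bases before the start, where the cores of both strands overlap, and another core 191 bases before the start. The full palindrome was found in no other member and in 1.79% of all promoters. The AP-1 site TGANTCA, the same on both strands, was in none of the 8 windows and in 7.81% of all promoters. These matches are letters in a window and were not tested for binding.

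The libraries held 8477482 to 13580985 counts, which gave *Fos* at least 1666 and *Dusp1* at least 185 counts in each. In P9 *Isl1CKO* libraries the 8 islet hormone genes took 13.98% to 30.18% of the counts, against 51.1% to 56.4% in P9 controls, so levels are given as CPM (counts scaled to a common library total) after TMM scaling over all 22 libraries, which rests on most genes and not on the totals. All 12 endocrine markers (*Chga*, *Pax6* and others) had counts in every library. *Isl1* itself, the targeted gene, was at 965 ± 295 CPM in P9 *Isl1CKO* (SD, n = 6) and 456 ± 61.7 CPM in P9 controls (SD, n = 5), and at 658 ± 62.8 CPM in E14.5 *Isl1CKO* (SD, n = 5) and 922 ± 84.9 CPM in E14.5 controls (SD, n = 6). The count sums all exons of the gene, so it does not check the deletion, and the P9 level goes against a plain loss of the transcript. For the protein, the authors saw by immunostaining virtually no ISL1 in developing *Isl1CKO* endocrine cells and none in islet nuclei. The groups are named by their labels throughout.

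*Fos* was the most abundant member per length of transcript. Per kilobase of exon it was at 183 ± 92.8 CPM in P9 *Isl1CKO* (SD, n = 6), 447 ± 88.1 in P9 controls (SD, n = 5), 146 ± 35.4 in E14.5 *Isl1CKO* (SD, n = 5) and 196 ± 78.8 in E14.5 controls (SD, n = 6), and it ranked first among the 10 members in 20 of 22 libraries. *Ier2*, the gene for a nuclear regulator, was second in all 4 groups by its mean, at 89.0, 133, 118 and 152 CPM per kilobase in the same order of groups. The ranges of *Fos* and *Ier2* overlapped in each group other than P9 controls. In P9 controls *Jund*, *Egr1* and *Dusp1* followed at 72.7, 68.5 and 63.1 CPM per kilobase and could not be ordered beyond their spread, and *Jun*, *Junb* and *Fosb* were at 32.2, 16.5 and 14.8. *Atf3* and *Fosl2*, at 2.77 and 1.51 CPM per kilobase, lay at the bottom and overlapped. In E14.5 controls *Junb* took the third place at 43.3 CPM per kilobase, whereas *Jund* and *Dusp1* were among the genes below it.

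**Figure D1:**
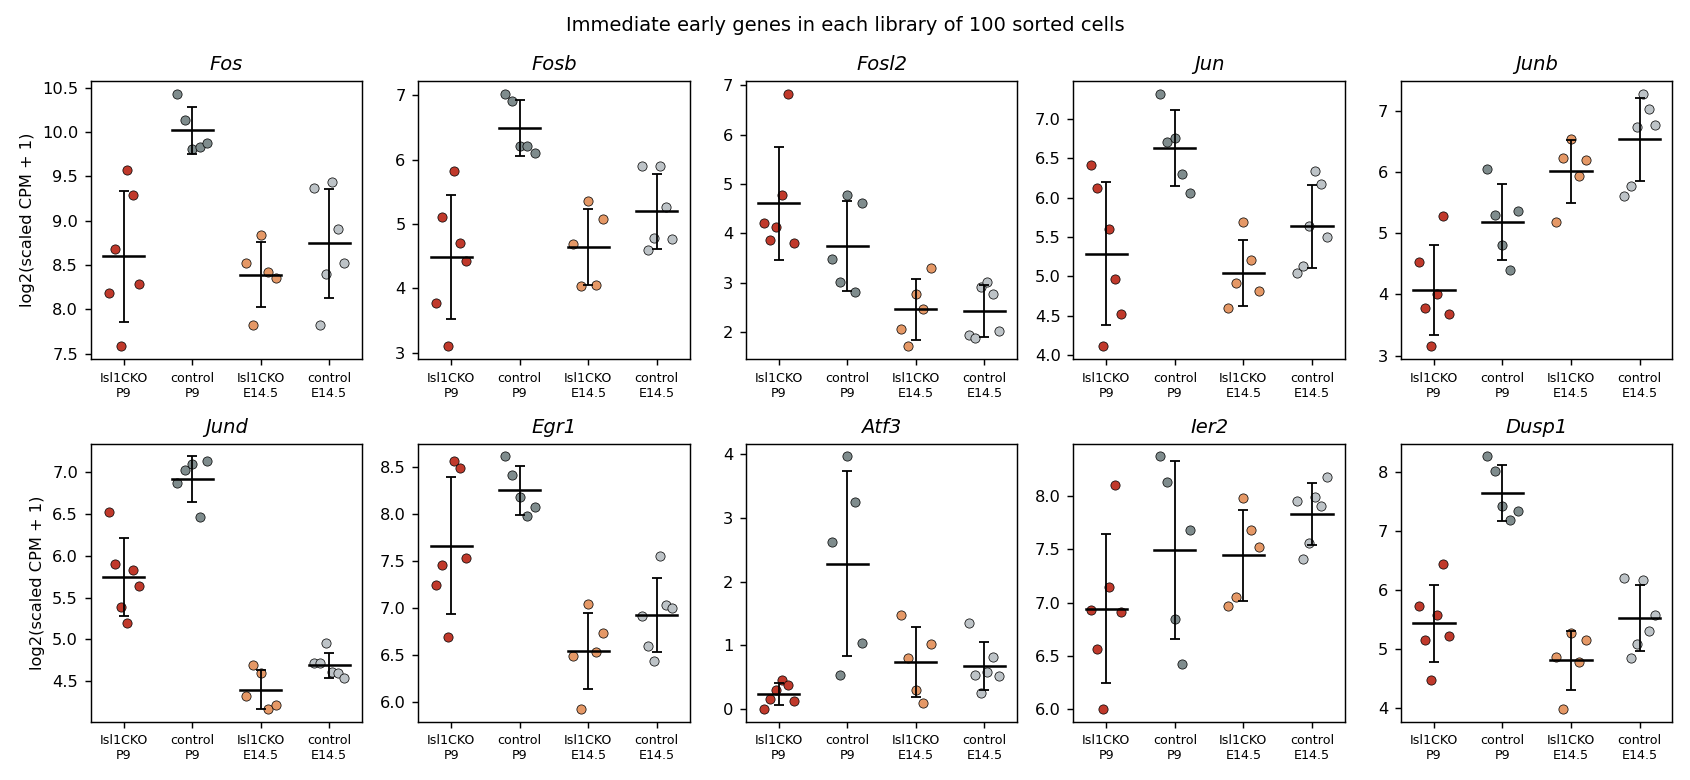
Level of each of the 10 members in single libraries, as log2(scaled CPM + 1) on the y axis, for P9 *Isl1CKO* (6 libraries), P9 control (5), E14.5 *Isl1CKO* (5) and E14.5 control (6). Points are libraries, horizontal lines are means and bars are SDs of the log2 values. At P9 the *Isl1CKO* points of *Fos*, *Fosb*, *Atf3* and *Dusp1* lie below all control points, and at E14.5 the groups overlap in each member.

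At P9, the *Isl1CKO* endocrine cells had less *Fos*, *Fosb*, *Jund* and *Dusp1* RNA, that is 4 of the 9 members tested, and more of no member. Of the 13964 genes in the test, 2.14% fell and 2.66% rose (edgeR's quasi-likelihood test, Benjamini-Hochberg adjusted p under 0.05). The log2 fold change was negative in 8 of the 9 members, all but *Fosl2*, with a median of -1.14, whereas the median over all genes was 0.02 and 48.3% of genes were negative. In 3 of the 9, *Fos*, *Fosb* and *Dusp1*, the highest *Isl1CKO* library was below the lowest control, which held for 2.57% of all genes. The members were chosen with earlier results of these data known, so these shares describe the list and are no test of it. Fewer cells that express a gene and less RNA per cell cannot be told apart in pools of 100 cells. Of the 8 islet hormone genes, 5 were lower in P9 *Isl1CKO*. Among them were *Gcg* (log2 fold change -6.03, adjusted p = 0.0026 from edgeR) and *Sst* (-10.4, adjusted p = 1.8e-06). The authors reported a loss of α cells and high blood glucose in these mice. The part of the cell mix and of glucose in the P9 falls was not tested.

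*Fos* on chromosome 12, the prototype AP-1 gene, was at 289, 411, 191, 759, 627 and 312 CPM in the 6 *Isl1CKO* libraries and at 1382, 1128, 896, 912 and 937 CPM in the 5 control libraries. The lowest control library thus exceeded the highest *Isl1CKO* library, number 4. The level was 2.44-fold lower in *Isl1CKO* (log2 fold change -1.29, standard error 0.29, adjusted p = 0.016 from edgeR). *Fosb*, which encodes a partner of JUN proteins known from neurons for its stable splice form, was at 12.7, 33.4, 7.55, 55.7, 25.2 and 20.4 CPM in *Isl1CKO*, against 129, 119, 73.2, 73.6 and 67.5 CPM in controls. It was 3.59-fold lower (log2 fold change -1.85, standard error 0.41, adjusted p = 0.015), and *Isl1CKO* libraries 3 and 4 were the extremes for *Fos* and *Fosb* alike. *Fosl2*, the gene of the FOS-related protein FRA-2, did not follow them. It was at 17.5, 13.6, 16.6, 26.4, 113 and 12.9 CPM in *Isl1CKO* and at 10.2, 7.09, 26.3, 6.01 and 23.6 CPM in controls (log2 fold change 1.177, adjusted p = 0.36). *Isl1CKO* library 5 stood far above the rest, and without it the log2 fold change was 0.25.

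*Jund* was the only JUN family gene that passed at P9. JUND is the family member that resting cells also make, and it restrains growth in several cell types. Its gene was at 90.9, 58.8, 40.8, 35.7, 55.9 and 49.0 CPM in *Isl1CKO* and at 116, 129, 135, 87.2 and 139 CPM in controls, so that only *Isl1CKO* library 1 reached into the control range. The level was 2.21-fold lower (log2 fold change -1.14, standard error 0.23, adjusted p = 0.0081 from edgeR). *Jun*, which encodes the main partner of FOS, was at 84.5, 68.4, 16.2, 47.6, 30.1 and 22.0 CPM in *Isl1CKO* and at 159, 103, 108, 77.8 and 65.8 CPM in controls. *Isl1CKO* libraries 1 and 2 overlapped the controls, and the log2 fold change of -1.20 (standard error 0.38) did not pass (adjusted p = 0.090). Only 1 of the 11 fits without 1 library called *Jun*, that without *Isl1CKO* library 1 (-1.48, adjusted p = 0.035). The largest adjusted p of these fits was 0.21. *Junb*, whose protein can oppose JUN, was at 22.1, 12.7, 7.89, 15.1, 37.7 and 11.9 CPM in *Isl1CKO* and at 64.9, 38.2, 26.9, 20.1 and 39.9 CPM in controls. Its log2 fold change of -1.09 (standard error 0.40) did not pass either (adjusted p = 0.16). Again 1 of the 11 fits called it, that without *Isl1CKO* library 5 (-1.45, adjusted p = 0.034), and the largest adjusted p was 0.36.

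*Dusp1* showed the largest fall of the 9 members tested. Its levels were 52.2, 34.4, 21.2, 46.8, 85.6 and 36.3 CPM in *Isl1CKO* and 308, 259, 171, 144 and 162 CPM in controls, without overlap. It was 4.55-fold lower (log2 fold change -2.19, standard error 0.31, adjusted p = 6.6e-04 from edgeR). *Egr1*, on chromosome 18, a zinc finger factor that responds to glucose in β cells, was at 151, 175, 103, 377, 357 and 184 CPM in *Isl1CKO* and at 389, 339, 288, 251 and 269 CPM in controls. *Isl1CKO* libraries 4 and 5 lay among the controls and the other 4 below them, and the log2 fold change of -0.46 (95% interval -1.07 to 0.15) did not pass (adjusted p = 0.47). *Ier2* was at 121, 93.5, 63.1, 141, 275 and 119 CPM in *Isl1CKO* and at 330, 279, 115, 85.0 and 205 CPM in controls, with broad overlap (log2 fold change -0.59, 95% interval -1.37 to 0.20, adjusted p = 0.47). 

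*Atf3* was too low for the filter at P9. It had 0, 1, 2, 3, 3 and 1 counts in the *Isl1CKO* libraries and 37, 3, 106, 54 and 8 counts in the controls. After scaling, these are 0 to 0.38 CPM in *Isl1CKO* and 0.45 to 14.6 CPM in controls, so the groups did not overlap, but control library 2 came close to the *Isl1CKO* level. When all 27504 genes were tested without the filter, edgeR gave *Atf3* a log2 fold change of -4.89 ± 1.00 (SE) with an adjusted p of 0.018. DESeq2, which adjusted over 18410 genes, gave -5.03 (adjusted p = 7.7e-06). With 10 or fewer counts in 8 of the 11 libraries, this fold is imprecise, and control libraries 1, 3 and 4 held most of the counts.

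**Figure D2:**
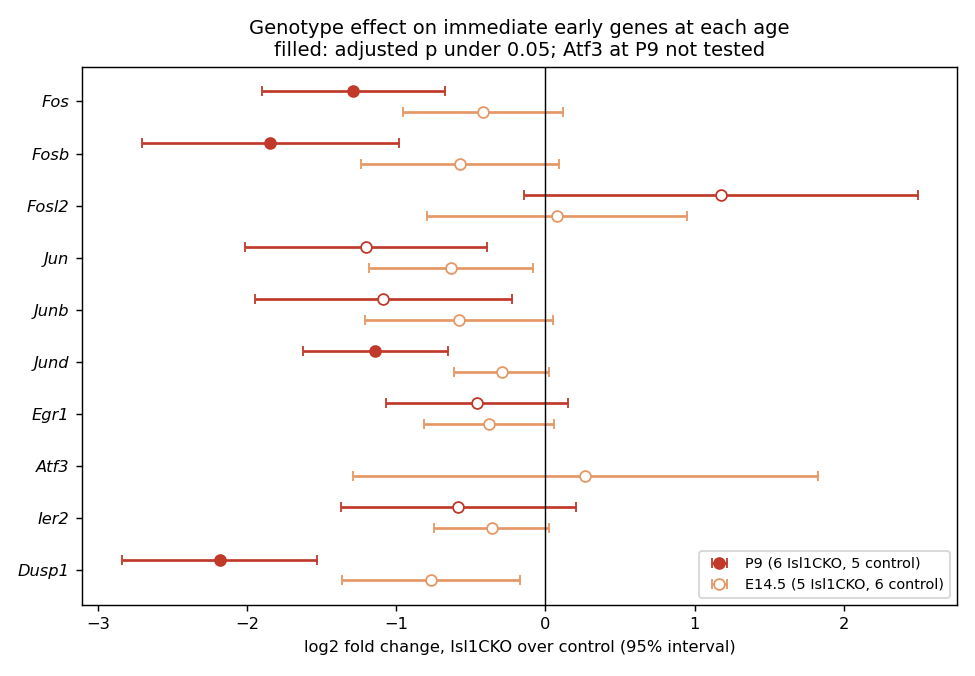
Genotype effect on each member, as the log2 fold change of *Isl1CKO* over control on the x axis with its 95% interval, at P9 (red) and at E14.5 (orange). Filled points passed an adjusted p under 0.05 from edgeR. The 4 filled points are *Fos*, *Fosb*, *Jund* and *Dusp1* at P9, the E14.5 points of these genes lie closer to 0, and *Atf3* has no P9 point because it was not tested there.

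The P9 falls of *Fos* and *Jund* depended on the scaling. With total counts alone, which the hormone transcripts dominate in controls, the median log2 fold change over all genes was 0.68, *Fos* was at -0.61 (adjusted p = 0.15 from edgeR) and *Jund* at -0.49 (adjusted p = 0.13), while *Fosb* at -1.18 (adjusted p = 0.045) and *Dusp1* at -1.49 (adjusted p = 0.0048) still passed. *Egr1* and *Ier2* changed sign under it, and *Fosl2* passed as higher, at 1.90 (adjusted p = 0.046). All 4 calls were made in each of the 11 fits that left out 1 library.

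At E14.5 no member passed. Over all 15960 genes tested, 0.827% were lower and 0.602% were higher. DESeq2 called no member either, and 2 members, *Jun* and *Dusp1*, had an unadjusted p under 0.05, which 5.95% of all genes had with a negative sign. No member had groups without overlap, where 1.29% of all genes were separate with *Isl1CKO* lower. The log2 fold change was negative in 8 of 10 members, with a median of -0.40, against -0.0045 over all genes. *Dusp1* was at 28.0, 14.7, 37.4, 26.3 and 34.5 CPM in *Isl1CKO* and at 72.7, 27.6, 32.8, 71.1, 38.3 and 46.5 CPM in controls (log2 fold change -0.77, 95% interval -1.36 to -0.17, adjusted p = 0.27 from edgeR). Here 3 of the 5 *Isl1CKO* libraries overlapped the control range. *Jun* was at 23.3, 29.2, 50.5, 35.8 and 27.1 CPM in *Isl1CKO* and at 32.0, 33.9, 48.6, 79.7, 71.0 and 44.2 CPM in controls (log2 fold change -0.63, 95% interval -1.18 to -0.08, adjusted p = 0.34). *Fos* was at 366, 225, 457, 342 and 325 CPM in *Isl1CKO* and at 660, 226, 337, 690, 479 and 368 CPM in controls (log2 fold change -0.42, 95% interval -0.95 to 0.12, adjusted p = 0.58). These intervals leave room for a fall of *Fos* and *Dusp1* and do not show that the genotypes were alike.

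The other 7 members at E14.5 had log2 fold changes between -0.58 for *Junb* and 0.27 for *Atf3*. *Junb* was at 35.2, 73.9, 92.1, 59.8 and 72.1 CPM in *Isl1CKO* and at 47.9, 53.7, 105, 154, 130 and 108 CPM in controls. *Jund* was tight at this age, at 17.0 to 24.8 CPM (median 19.0) in *Isl1CKO* and at 22.3 to 30.1 CPM (median 24.4) in controls, which is a log2 fold change of -0.29 ± 0.15 (SE) with an adjusted p of 0.49 in edgeR. *Atf3* held 1 to 27 counts in *Isl1CKO* libraries and 3 to 22 counts in control libraries, and *Fosl2* was at 2.26 to 8.78 CPM in *Isl1CKO* and 2.66 to 7.08 CPM in controls. Neither gene separated the groups.

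Whether the genotype effect differed between the ages was tested with the interaction term of 1 edgeR model over all 22 libraries. Of the 10 members, only *Atf3* passed (log2 difference of the effects -5.23, standard error 1.23, adjusted p = 0.026), against 0.851% of 17265 genes with a lower effect at P9 and 1.23% with a higher one. *Atf3* had been too low for the filter at P9, with 0 to 0.38 CPM in *Isl1CKO*. It entered this model through libraries of the other groups, so the P9 part of its value rests on few counts. Without control P9 library 3 its adjusted p was 0.055 and without *Isl1CKO* E14.5 library 1 it was 0.066. The difference was -1.41 for *Dusp1* (adjusted p = 0.095), -0.84 for *Jund* (adjusted p = 0.11), -1.26 for *Fosb* (adjusted p = 0.26) and -0.86 for *Fos* (adjusted p = 0.33). These 5 had an unadjusted p under 0.05, as had 6.39% of all genes in this direction. Without *Isl1CKO* P9 library 5 that of *Dusp1* was -1.69 (adjusted p = 0.027), and without *Isl1CKO* P9 library 1 that of *Jund* was -1.04 (adjusted p = 0.014). For each gene this was the only call, 1 of 22 fits. The largest adjusted p was 0.18 for *Dusp1* and 0.20 for *Jund*. The calls of *Fos*, *Fosb*, *Jund* and *Dusp1* at P9 and their absence at E14.5 therefore do not establish that the effect was confined to P9.

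The members also differed between the ages within 1 genotype. P9 cells and E14.5 cells differ in age and in the collagenase step, and these cannot be told apart. In controls 8 of 10 members were higher at P9 (15.8% of all genes) and *Junb* was lower (15.2% of all genes). *Jund* averaged 121 ± 21.0 CPM in P9 controls (SD, n = 5) and 25.0 ± 2.79 CPM in E14.5 controls (SD, n = 6), which is 4.86-fold higher at P9 (log2 fold change 2.28, edgeR adjusted p = 7.3e-09). *Dusp1* averaged 209 ± 71.0 CPM in P9 controls and 48.2 ± 19.4 CPM in E14.5 controls (log2 fold change 2.12, adjusted p = 2.0e-05). *Fos* averaged 1051 ± 207 CPM in P9 controls and 460 ± 185 CPM in E14.5 controls (log2 fold change 1.19, adjusted p = 0.0033). The groups did not overlap for *Fos*, *Fosb*, *Jund*, *Egr1* and *Dusp1*, 5 of 10 members, where 9.85% of all genes were separate in this direction. *Fosb* (1.27), *Egr1* (1.31), *Fosl2* (1.66), *Jun* (0.99) and *Atf3* (3.20) were the other rises, as log2 fold changes, but leaving out 1 library ended the call of *Fosl2* in 5 of 22 fits and that of *Jun* in 7 of 22.

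*Junb* ran the other way, at 38.0 ± 17.1 CPM in P9 controls and 99.7 ± 41.8 CPM in E14.5 controls (log2 fold change -1.39, adjusted p = 0.0064 from edgeR). *Ier2* did not pass, at 203 ± 105 and 231 ± 44.4 CPM in the same groups (log2 fold change -0.19, 95% interval -0.85 to 0.48, adjusted p = 0.71). With total counts alone the median of all genes fell by 1.21 on the log2 scale in this comparison, and *Fos* was then at 0.02, *Fosb* at 0.10, *Fosl2* at 0.49 and *Egr1* at 0.13 with none of them past the threshold, *Jun* was at -0.18, and *Ier2* passed as lower at -1.36 (adjusted p = 0.0019), while *Jund*, *Dusp1* and *Atf3* were still higher. The marker sums of other cells moved with age as well. In controls 5 of 10 macrophage markers tested were higher and none was lower at P9, with sums of 41.6 to 89.7 CPM at P9 and 29.5 to 47.3 CPM at E14.5, and 4 of 6 acinar markers were higher and none was lower, with sums of 53.3 to 1007 and 4.71 to 245 CPM. Their part in the age differences was not tested.

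In *Isl1CKO* cells 3 members were higher at P9 (16% of all genes), *Fosl2* (log2 fold change 2.76), *Jund* (1.44) and *Egr1* (1.23), and *Junb* was lower (-1.89), as were 13.7% of all genes. *Fosl2* and *Jund* did not overlap between the ages, as held for 9.21% of all genes in this direction. *Fos* averaged 431 ± 218 CPM in P9 *Isl1CKO* (SD, n = 6) and 343 ± 83.2 CPM in E14.5 *Isl1CKO* (SD, n = 5), or 0.33 on the log2 scale (95% interval -0.28 to 0.94, adjusted p = 0.43 from edgeR). *Fosb* averaged 25.8 ± 17.3 and 25.7 ± 10.8 CPM in these groups (log2 fold change 0.00, 95% interval -0.79 to 0.80), and *Dusp1* 46.1 ± 22.2 and 28.2 ± 8.78 CPM (log2 fold change 0.71, adjusted p = 0.096). The rise of *Fosl2* in *Isl1CKO* was 1.82 on the log2 scale without P9 library 5 and still passed. The test of whether the age difference depends on genotype is the interaction given above, which *Fos*, *Fosb* and *Dusp1* did not pass. In *Isl1CKO* 4 of 10 macrophage markers were lower and none was higher at P9, with sums of 11.9 to 61.8 CPM at P9 and 30.3 to 87.3 CPM at E14.5, and 3 of 6 acinar markers were higher and none was lower, with sums of 6.54 to 216 and 8.21 to 41.6 CPM.

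**Figure D3:**
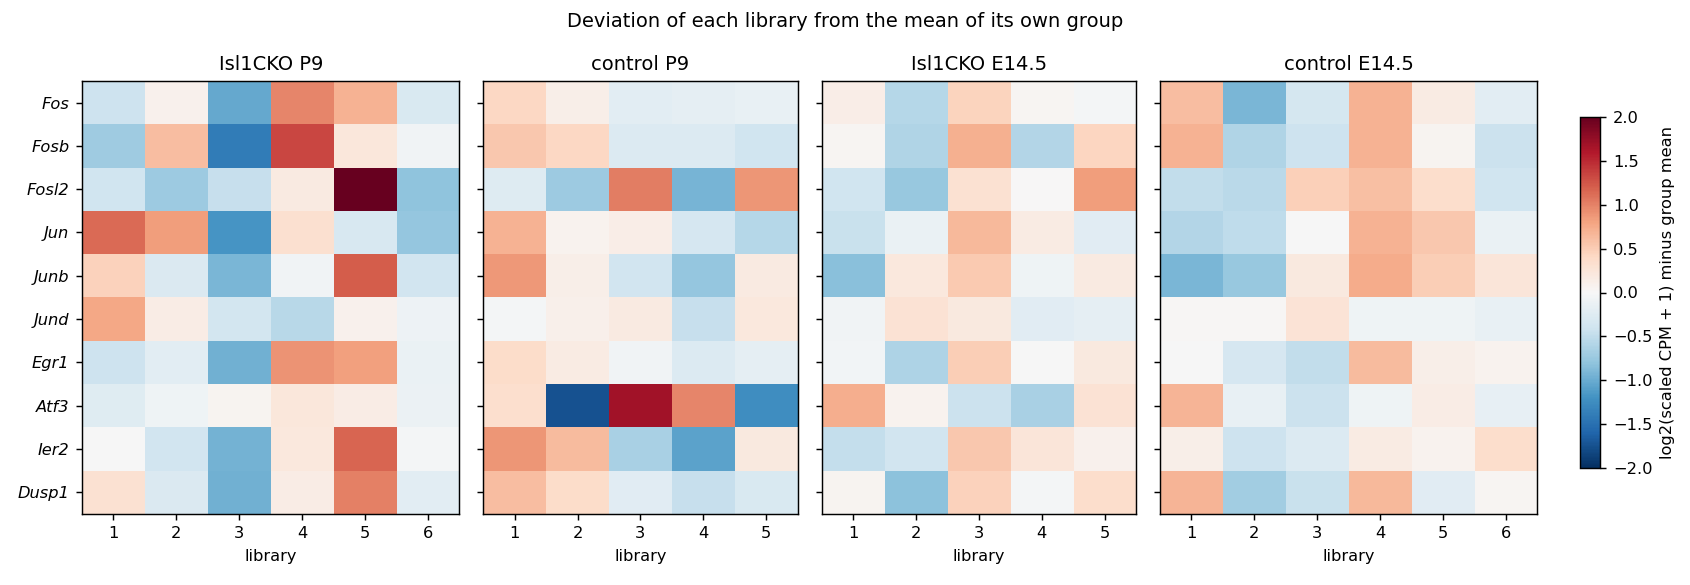
Deviation of each library (x axis) from the mean of its own group for each of the 10 members (y axis), in log2(scaled CPM + 1), red above and blue below the mean, for P9 *Isl1CKO*, P9 control, E14.5 *Isl1CKO* and E14.5 control. Colours stop at 2 in either direction. P9 *Isl1CKO* library 3 is blue and P9 control library 1 is red for most members, and *Jund* and *Atf3* stray from the common pattern.

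Within a group, libraries tended to be high or low for many members at once. P9 *Isl1CKO* library 3 was the lowest of its group in 7 of 10 members, and libraries 4 and 5 were the highest in 4 each. P9 control library 1 was the highest in 7 members and library 4 the lowest in 6. At E14.5, *Isl1CKO* library 3 was the highest in 7 members, and control library 4 was the highest in 6. After the mean of each group was taken off, the median Pearson correlation over the 45 pairs of members was 0.41 at P9 and 0.40 at E14.5 (11 libraries each), against about 0.00 over all pairs of well-expressed genes. A correlation over 0.5 was seen in 16 of the 45 pairs at P9 and 15 at E14.5, against 7.87% and 7.59% of all gene pairs. *Fos* and *Egr1* were the closest pair at P9, at 0.97, and *Fos* and *Dusp1* at E14.5, at 0.90. *Fos* and *Fosb* stood at 0.91 and 0.85 at these ages. *Jund* went with *Jun* (0.51) rather than with *Fos* (-0.19) or *Egr1* (-0.18) at P9, and *Atf3* stood at -0.01 to *Fos*. The points of each correlation share a library and its depth, and the source of the spread was not tested.

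The members were left out of the search for genes that follow *Fos*, and *Fosb* (0.91 at P9 and 0.85 at E14.5), *Egr1* (0.97 and 0.78) and *Dusp1* (0.73 and 0.90) followed it more closely, by the smaller of these values, than any gene found. Among 9437 protein-coding genes outside the members that averaged at least 50 scaled counts, the 5 most like *Fos* across libraries, by the smaller of the within-age correlations, were *Rab31* (0.71), *Clp1* (0.69), *Fcho2* (0.66), *Dhx8* (0.66) and *Ttc8* (0.65). Each value is over 11 libraries of an age, with group means removed. They are the highest of 9437 values, and whether they exceed chance was not tested. *Rab31*, a small GTPase of vesicle traffic, had a P9 log2 fold change of -1.85 but did not pass (adjusted p = 0.22 from edgeR), and none of the other 4 passed at either age. No gene of the list of further immediate early genes was among the 5.

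Other genes of the response were read from lists. Of 39 further immediate early genes tested at P9, 1 fell (2.14% of all genes) and none rose (2.66% of all genes). Their median log2 fold change was -0.22, against 0.02 over all genes. The gene that fell was *Gadd45g*, which encodes a stress sensor that activates p38 and JNK kinases, at 132 ± 51.7 CPM in *Isl1CKO* (SD, n = 6) and 331 ± 78.8 CPM in controls (SD, n = 5). It was 2.53-fold lower (log2 fold change -1.34, adjusted p = 0.0047 from edgeR), and its effect differed between the ages (difference -1.71, adjusted p = 0.0031). *Nr4a1*, an orphan nuclear receptor of the same early wave, stood at -0.24 on the log2 scale (adjusted p = 0.84). At E14.5, 1 of 40 such genes was lower, *Klf4*, at 2.62 ± 0.85 CPM in *Isl1CKO* and 7.38 ± 2.60 CPM in controls (log2 fold change -1.49, adjusted p = 0.043), but only 2 of the 11 fits without 1 library called it.

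Of 8 further leucine zipper partners of AP-1 tested at P9, 2 fell (2.14% of all genes) and none rose, with a median log2 fold change of 0.11. None of 8 changed at E14.5. *Mafg*, a small MAF gene, was at 35.9 ± 10.4 CPM in *Isl1CKO* and 78.9 ± 21.5 CPM in controls (log2 fold change -1.14, adjusted p = 0.012 from edgeR). *Atf4*, the effector gene of the integrated stress response, was lower at P9 by edgeR (log2 fold change -0.78, adjusted p = 0.034), a call that 4 of the 11 fits without 1 library made. Of 13 targets and regulators of the integrated stress response tested at P9, none passed. *Ddit3*, the gene of this list with the smallest p, was lower but just missed the threshold (log2 fold change -1.84, standard error 0.53, adjusted p = 0.058 from edgeR). The log2 fold change was negative in 7 of the 13, with a median of -0.0082. At E14.5, 2 of 14 rose (0.602% of all genes) and none fell. *Stc2*, which encodes a secreted glycoprotein, was at 32.0 ± 4.66 CPM in *Isl1CKO* (SD, n = 5) and 15.2 ± 1.71 CPM in controls (SD, n = 6; log2 fold change 1.08, adjusted p = 0.0011 from edgeR), and *Asns*, the asparagine synthetase gene, was at 68.7 ± 17.9 CPM in *Isl1CKO* and 38.3 ± 4.02 CPM in controls (log2 fold change 0.84, adjusted p = 0.012). Neither passed the interaction. *Isl1CKO* libraries 3, 4 and 5 had the highest macrophage marker sums of that age (chosen after the data were seen). Without them *Asns* did not pass (0.60, adjusted p = 0.39 from edgeR). That fit had fewer libraries and called 42 genes in all, against 228 with every library. The part of macrophages in the *Asns* call was not tested.

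Among the kinases, phosphatases and factors of the response, *Dusp6* and *Dusp16* were higher in P9 *Isl1CKO*, whereas *Dusp1* and *Mapk3* were lower. None of 26 upstream kinases and factors changed at E14.5. Of the 26 upstream kinases and factors tested at P9, 1 fell (2.14% of all genes) and none rose (2.66% of all genes). The gene that fell was *Mapk3*, which encodes the MAP kinase ERK1, at 32.2 ± 13.4 CPM in *Isl1CKO* (SD, n = 6) and 81.2 ± 19.2 CPM in controls (SD, n = 5). It was 2.53-fold lower (log2 fold change -1.34, adjusted p = 0.016 from edgeR). None of 8 dual specificity phosphatase genes tested beside *Dusp1* changed at E14.5. Of 7 tested at P9, 2 rose (2.66% of all genes) and none fell (2.14% of all genes). The log2 fold change was negative in 3 of the 7. Among these were *Dusp8* (-1.39, adjusted p = 0.18) and *Dusp10* (-0.84, adjusted p = 0.29 from edgeR), which did not pass. *Dusp6*, whose product acts on ERK in the cytoplasm, was at 149 ± 52.9 CPM in *Isl1CKO* and 15.9 ± 6.30 CPM in controls, with ranges of 79.1 to 226 and 10.3 to 26.4 CPM. It was 9.32-fold higher (log2 fold change 3.22, standard error 0.31, adjusted p = 3.3e-05), in the opposite direction to *Dusp1*. *Dusp16*, whose product acts on JNK and p38, was 2.86-fold higher (log2 fold change 1.52, adjusted p = 0.0083). The effect of the genotype on *Dusp6* differed between the ages (difference 2.695, adjusted p = 5.0e-04), and at E14.5 *Dusp6* was at 62.6 ± 13.7 CPM in *Isl1CKO* (SD, n = 5) and 43.2 ± 13.9 CPM in controls (SD, n = 6; log2 fold change 0.53, adjusted p = 0.38). The falls of *Gadd45g*, *Mafg*, *Atf4* and *Mapk3* at P9 did not pass with total counts alone, while *Dusp6* and *Dusp16* did.

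**Figure D4:**
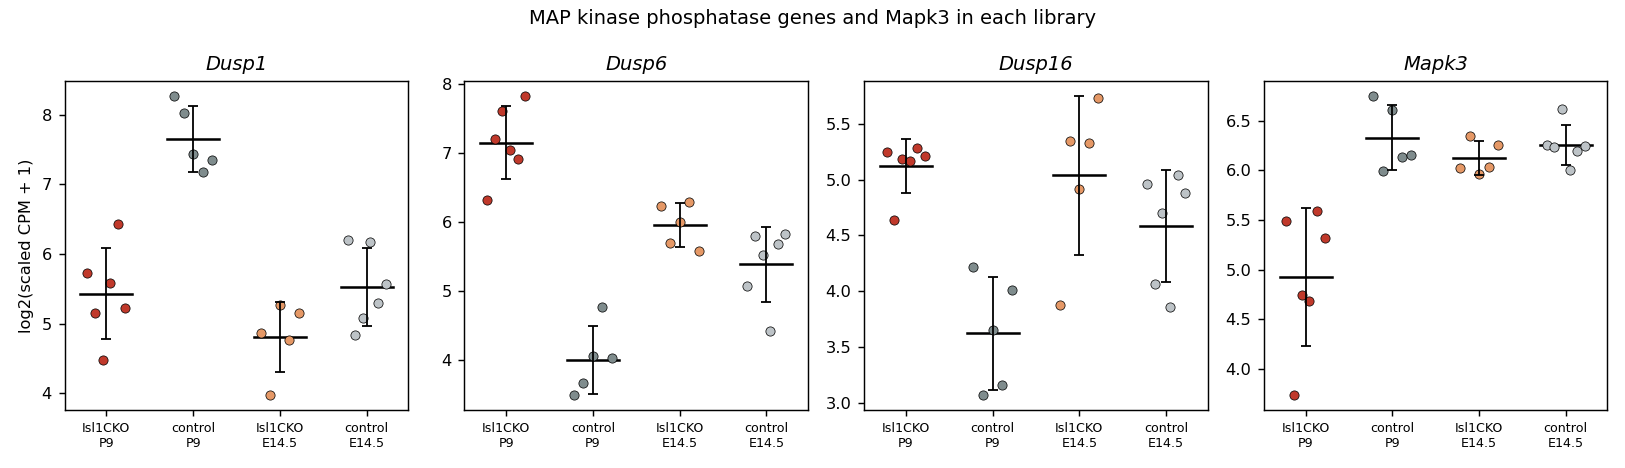
*Dusp1*, *Dusp6*, *Dusp16* and *Mapk3* in single libraries, as log2(scaled CPM + 1) on the y axis, for P9 *Isl1CKO* (6 libraries), P9 control (5), E14.5 *Isl1CKO* (5) and E14.5 control (6). Points are libraries, horizontal lines are means and bars are SDs of the log2 values. At P9 the *Isl1CKO* points of *Dusp1* and *Mapk3* lie below all control points and those of *Dusp6* and *Dusp16* lie above them.

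Heat shock genes are also induced by warm dissociation in many tissues. Of 17 tested at P9, 2 rose (2.66% of all genes) and none fell (2.14% of all genes) in *Isl1CKO*. Their median log2 fold change was 0.00, and 8 of the 17 were negative. The 2 that rose were *Hspa8* (0.59, adjusted p = 0.047 from edgeR) and *Hsp90ab1* (0.43, adjusted p = 0.037), both chaperone genes that unstressed cells express. Their calls were lost in 10 and 8 of the 11 fits without 1 library. The inducible *Hspa1a* (-0.94) and *Hspa1b* (-0.47) were among the negative ones and did not pass. None of 16 heat shock genes changed at E14.5. Between the ages in controls, 8 of 17 heat shock genes were lower at P9 (15.2% of all genes) and 2 were higher (15.8% of all genes), the inducible *Hspa1a* (log2 fold change 4.32) and *Hspa1b* (4.60), a share near that of all genes. In *Isl1CKO* 8 were lower (13.7% of all genes) and 3 were higher (16% of all genes) at P9. The part of dissociation and sorting in the P9 falls was not tested.

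Cells other than endocrine cells also express these 10 genes. The summed level of 11 macrophage markers was 11.9 to 61.8 CPM in P9 *Isl1CKO* libraries and 41.6 to 89.7 CPM in P9 controls, below that of *Fos* alone in every library. The filter at P9 left 4 of 12 macrophage markers in the test, none of which changed, and up to 4 of the 11 were at 0 in single *Isl1CKO* libraries and up to 3 in single controls. *Cd14*, a monocyte receptor gene, was at 0 to 0.13 CPM in P9 *Isl1CKO*, 0 to 9.92 in P9 controls, 0 to 6.32 in E14.5 *Isl1CKO* and 0 to 0.19 in E14.5 controls. *Ctss*, the cathepsin S gene, was at 0 to 0.50 CPM in P9 *Isl1CKO*, 0.14 to 5.51 in P9 controls, 0 to 4.98 in E14.5 *Isl1CKO* and 0 to 0.28 in E14.5 controls. In the interaction model 10 macrophage markers were tested. These 2 passed with a lower effect at P9 and none with a higher one (*Cd14* adjusted p = 0.0080, *Ctss* adjusted p = 0.0081, edgeR). Neither had passed the filter at P9 or at E14.5 alone. They entered this model through P9 controls and E14.5 *Isl1CKO*, the groups whose higher levels make the term negative. Their calls therefore lend no weight to that of *Atf3*, the only member that passed there. Endothelial markers ran against the members: the sum of 7 was 21.4 to 123 CPM in *Isl1CKO* and 6.01 to 14.3 CPM in controls. *Cldn5* alone was at 3.83 to 94.6 CPM in *Isl1CKO* and 0.39 to 2.06 CPM in controls, and without it the sum was 15.9 to 34.0 CPM in *Isl1CKO* and 3.95 to 13.9 CPM in controls. None of the 7 acinar markers tested at P9 passed, all 7 had a negative log2 fold change, and their sum was 6.54 to 216 CPM in *Isl1CKO* and 53.3 to 1007 CPM in controls. At E14.5 the macrophage sum was 30.3 to 87.3 CPM in *Isl1CKO* and 29.5 to 47.3 CPM in controls, and *Isl1CKO* libraries 3, 4 and 5, at 78.3, 87.3 and 50.4 CPM, lay above all other E14.5 libraries. The part of these cells in the members' levels was not tested.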

How the data were processed

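RNA was measured in 22 libraries of 100 sorted tdTomato+ cells, in 4 groups of age and genotype. The authors trimmed the reads with cutadapt 1.18 and Trimmomatic, removed ribosomal reads with Bowtie 1.2.2 and SortMeRNA, aligned the rest to GRCm38 with STAR 2.7.0c and counted them per gene with Rsubread, leaving out reads with several positions. The deposited values are raw counts per gene in 1 table for each age. A near-identical copy of a gene would therefore lose counts.

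Symbols and exon lengths came from GENCODE M21 (GRCm38). Counts were tested with edgeR 4.0.16 (R 4.3.3; TMM scaling, filterByExpr, quasi-likelihood test, Benjamini-Hochberg adjustment over all genes tested) at each age, and in 1 model of 4 groups for the interaction and the ages. A gene was called at an adjusted p under 0.05. Levels are CPM scaled by TMM over all 22 libraries and need not sum to the same total, and log2 values carry a pseudocount of 1. Numbers of replicates and of counts limit the precision, with 8477482 to 13580985 counts per library. The scripts were tested on simulated data. Alternatives were DESeq2 1.42.0, its size factors, total counts with and without the hormone genes, no filter, robust dispersion, fold and mean thresholds, the replicate number as a block and leaving out each library.

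All 10 members were named, with *Isl1*, up to 4 genes per list with the smallest p, and the 5 genes most like *Fos*. *Nr4a1*, *Hspa1a*, *Hspa1b*, *Cd14*, *Ctss*, *Cldn5*, *Gcg* and *Sst* were named outside this rule after their values were seen. The members and lists were chosen with earlier results of these data known. A gene of the list of AP-1 partners is not reported here and was left out of its counts.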

Additional observations from a re-analysis of the deposited data

Results flagged for a closer look

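In 44 groups of libraries (10 members and *Isl1*, each in 4 groups), 3 held a library far from the others by Dixon's criterion, which chance gives in about 5 percent of groups. *Fosl2* was at 112.9 CPM in P9 *Isl1CKO* library 5, and the next library of that group was at 26.42 CPM. *Ier2* was at 274.6 CPM in the same library, and the next was at 140.8 CPM. *Isl1* was at 550.2 CPM in E14.5 *Isl1CKO* library 5, the lowest of its group, and the next was at 668.7 CPM.

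The genotype effect differed between the ages, by the interaction term in edgeR, for 7 of the genes named. On the log2 scale the effect at P9 minus that at E14.5 was -5.225 for *Atf3* (adjusted p = 0.026), -1.706 for *Gadd45g* (adjusted p = 0.0031), -0.8787 for *Atf4* (adjusted p = 0.044), 2.695 for *Dusp6* (adjusted p = 5.0e-04), -10.64 for *Cd14* (adjusted p = 0.0080), -8.863 for *Ctss* (adjusted p = 0.0081) and 1.567 for *Isl1* (adjusted p = 7.2e-04). The call of *Atf4* was lost in 17 of the 22 fits without 1 library and that of *Atf3* in 2, whereas *Gadd45g*, *Dusp6*, *Cd14*, *Ctss* and *Isl1* were called in all 22. *Cd14* and *Ctss* are macrophage markers with libraries at 0 in 3 or more of the 4 groups, so their fitted values depend on the prior count and are no measure of size. Both passed the filter only in the model of all 22 libraries, through the groups where they were higher.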

How the results depend on the processing

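At P9, 671 genes were called in the fit reported, against 1677 with DESeq2 and 3962 with total counts alone (3811 higher and 151 lower). At E14.5, 228 genes were called, against 653 with DESeq2, 131 with fold and mean thresholds and 42 once *Isl1CKO* libraries 3, 4 and 5 were left out (chosen after the data were seen). The interaction gave 359 genes, against 924 with DESeq2 and 3180 with total counts alone (3090 higher and 90 lower), and the ages in controls gave 5345 genes, against 10636 with total counts alone (605 higher and 10031 lower), where 5 rather than 9 members passed. With total counts alone the sign turned at P9 for *Egr1* (0.234) and *Ier2* (0.121), in the interaction for *Jun* (0.026), *Junb* (0.166), *Egr1* (0.591) and *Ier2* (0.457), between ages in controls for *Jun* (-0.177), and between ages in *Isl1CKO* for *Fos* (-0.193), *Fosb* (-0.533), *Jun* (-0.151) and *Isl1* (-0.005). The value of *Fosb* between ages in *Isl1CKO*, near 0, was also -0.008 with DESeq2, -0.204 with totals without the hormone genes and -0.090 without the filter. *Fosl2* at E14.5 was -0.773 without *Isl1CKO* libraries 3, 4 and 5. The cause of these changes was not tested.

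Leaving out 1 library gave 467 (without control library 4) to 682 genes at P9 with 4 to 5 members, 114 (without *Isl1CKO* library 5) to 229 genes at E14.5 with 0 members, and 219 (without E14.5 *Isl1CKO* library 1) to 483 genes in the interaction with 0 to 2 members. It gave 4755 to 5649 genes between ages in controls with 7 to 9 members, and 4331 to 5243 genes between ages in *Isl1CKO* with 4 to 5 members. Signs turned in some of these fits for *Atf3* (-0.293 to 0.561) and *Fosl2* (-0.237 to 0.261) at E14.5, *Egr1* (-0.283 to 0.076) and *Ier2* (-0.557 to 0.031) in the interaction, *Fosb* between ages in *Isl1CKO* (-0.371 to 0.219) and *Ier2* between ages in controls (-0.439 to 0.004).

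The replicate numbers did not pair the libraries: the correlation of same-numbered libraries was between -0.049 and 0.054. With the replicate number as a block, 333 genes were called at P9 and 134 at E14.5, with 3 and 0 members, the adjusted p of *Fos* at P9 was 0.052 (edgeR), the calls of *Mafg* (0.054), *Hspa8* (0.20), *Hsp90ab1* (0.13) and *Isl1* (0.066) at P9 and of *Isl1* (0.052), *Klf4* (0.076) and *Asns* (0.089) at E14.5 were lost as well, by adjusted p, and *Fosl2* (-0.055) and *Atf3* (-0.044) turned sign at E14.5. At 0 to 3 counts per P9 *Isl1CKO* library, depth limits the size of the *Atf3* difference.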
